A study of Mus musculus with 30 samples.

Results

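Whole-brain transcripts of adult Arid1b+/- male mice that had received fluoxetine early in life (HT-Flx) were compared with those of wildtype male mice that had received vehicle (WT-Veh) at postnatal day 120 (P120). The comparison took 9 of the 30 libraries in the series, of which 20 were from P120. The members were HT-Flx replicates 1 to 5 and WT-Veh replicates 1, 3, 4 and 5. WT-Veh replicate 2 was left out because its Arid1b value went against its label, and results are also given with it put back. All mice were C57BL/6N, and the mutants carried 1 truncated and 1 intact copy of Arid1b in every cell. Dams of the HT-Flx pups drank fluoxetine at 0.1 mg/ml in water with 0.2% saccharin from P3 to P21, so that the drug reached the pups through milk. Dams of the WT-Veh pups drank 0.2% saccharin water without the drug. The comparison asks how far the treated mutant adult brain still differs from the untreated wildtype brain. Since genotype and treatment both differ between the groups, their parts cannot be told apart here.

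Arid1b encodes a DNA-binding subunit of the BAF complex, which uses ATP to move nucleosomes and so opens chromatin at promoters and enhancers. Fluoxetine blocks the serotonin transporter and raises serotonin outside the cell. In RNA-Seq, the GC content of a transcript, the percentage of its bases that are G or C, is known to change how well its fragments are amplified and sequenced, and the strength of this effect differs between libraries. The authors had quantified the reads with a correction for GC bias switched on. They describe the normalised values as read counts divided by size factors. How far the values below carry the GC correction is therefore unknown. Libraries can therefore differ along GC content across very many genes at once, and pathways whose genes share a base composition then move together.

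The values were read counts per gene as normalised by the authors for library size, so that the sequencing depth is unknown. Their totals were 37083545 to 41522113 in HT-Flx and 33424948 to 35542279 in WT-Veh. Markers of the labelled tissue were present in all 9 libraries, from Snap25 of neurons at 25934 to 57283 and Mbp of myelin at 88464 to 181586 to Cx3cr1 of microglia at 729.3 to 1203. Pairs of libraries correlated at 0.972 to 0.986 within groups and 0.945 to 0.986 between them, and none were identical. In whole tissue, fewer cells of a type and less RNA per cell cannot be told apart. Markers of cerebellar neurons were low in WT-Veh 1, at a median of -1.29 log2 from the gene means against 0.16 to 0.42 in the other WT-Veh libraries, and markers of striatal neurons were low in HT-Flx 5, at -0.53 against 0.15 to 0.32. The part of these libraries' tissue makeup in the results was not tested, and counts without each of them are given below.

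Arid1b itself (ENSMUSG00000069729, GRCm38 chr17:4994332-5347656, plus strand) was 2164, 2554, 2171, 2616 and 2356 in HT-Flx 1 to 5. It was 3171, 3036, 3224 and 3229 in WT-Veh 1, 3, 4 and 5. All mutant libraries were below all 4 wildtype libraries, at 2372 ± 210 (SD, n = 5) against 3165 ± 90.0 (SD, n = 4). WT-Veh 2, at 2320, lay within the mutant range, and HT-Veh 2, an untreated mutant that is not part of the comparison, lay at 3361 within the wildtype range. Because this value chose the libraries, it is a description and was not tested, although Arid1b is among the genes of the overall counts. The table counts message from the intact and the truncated copy together.

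The base composition that separates the transcripts is visible only in part in short stretches of their coding sequence. The first 120 coding bases of 3 transcripts from GC-poor genes and of 1 from a GC-rich gene are shown 5′ to 3′ on the coding strand (GENCODE M21 on GRCm38), with G and C in capitals, because the groups differed along this property before any adjustment.
mt-Nd4l: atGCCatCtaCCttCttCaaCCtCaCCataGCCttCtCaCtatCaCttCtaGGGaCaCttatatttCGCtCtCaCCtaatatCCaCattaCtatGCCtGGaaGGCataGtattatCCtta
Uqcrb: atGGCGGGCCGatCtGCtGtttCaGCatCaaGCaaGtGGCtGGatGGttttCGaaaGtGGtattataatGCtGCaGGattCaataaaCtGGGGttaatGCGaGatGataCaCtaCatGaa
Clk4: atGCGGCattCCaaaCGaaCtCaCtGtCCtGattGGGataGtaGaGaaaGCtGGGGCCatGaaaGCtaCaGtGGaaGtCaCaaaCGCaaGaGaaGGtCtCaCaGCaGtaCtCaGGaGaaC
Hspa1b: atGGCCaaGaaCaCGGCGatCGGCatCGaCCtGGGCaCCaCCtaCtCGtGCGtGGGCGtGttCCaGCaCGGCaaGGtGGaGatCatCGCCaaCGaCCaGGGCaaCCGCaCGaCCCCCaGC
mt-Nd4l (chrM:9877-10173, plus strand) and Uqcrb (chr13:66900617-66905378, minus strand) encode subunits of respiratory complexes I and III, and Clk4 (chr11:51261730-51281766, plus strand) encodes a kinase of splicing factors. The GC content of their longest transcripts was 41.1%, 40.4% and 38.8%. Hspa1b (chr17:34956436-34959238, minus strand), an inducible heat shock protein, had 58.1%. In the stretches printed, G and C made up 40.8%, 44.2% and 49.2% of the first 3 sequences and 65.0% of the last. The Clk4 stretch is thus not GC-poor, since the longest transcripts of all tested genes had a median of 49.7%. The whole coding sequence of Clk4 had 43.2%.

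On the values as deposited, the groups differed along GC content. For each library, the deviation of each gene from its mean log2 value over the 9 libraries was regressed on the GC content of its longest transcript. The slope, in log2 units per 10 percentage points of GC, was 0.495, 0.204, 0.298, 0.104 and 0.0862 in HT-Flx 1 to 5. It was -0.454, -0.00954, -0.264 and -0.460 in WT-Veh 1, 3, 4 and 5. Every HT-Flx library was tilted towards GC-rich transcripts relative to every WT-Veh library, with means of 0.237 ± 0.167 (SD, n = 5) and -0.297 ± 0.212 (SD, n = 4). The difference of 0.534 had a two-sided exact permutation p of 0.00794, the smallest that 5 libraries against 4 can give. It was 0.525 with WT-Veh 2 put back, and 0.47 to 0.63 without each library in turn (exact p 0.0179 to 0.0286). Slopes were uneven within the groups too, since WT-Veh 3 was nearly flat and lay close to HT-Flx 4 and 5.

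The tilt was large against the fold changes of single genes. In the 20 bins of equal gene number that were ordered by GC content, the median log2 fold change of HT-Flx over WT-Veh was -0.62 in the lowest bin (median GC 37.8%) and 0.52 in the highest (61.4%). Of the genes tested on deposited values, 39.0% in the lowest bin were called lower in HT-Flx, where called means a limma adjusted p under 0.05. In the highest bin 58.7% were called higher and 0 lower. Slopes on transcript length differed as well, by -0.121 log2 per doubling of length (exact permutation p = 0.0397). Among the other P120 libraries, slopes were -0.505 to -0.595 in wildtype mice given fluoxetine (WT-Flx) and -0.582 to 0.216 in untreated mutants (HT-Veh), so that libraries of 1 group also differed widely.

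**Figure D1:**
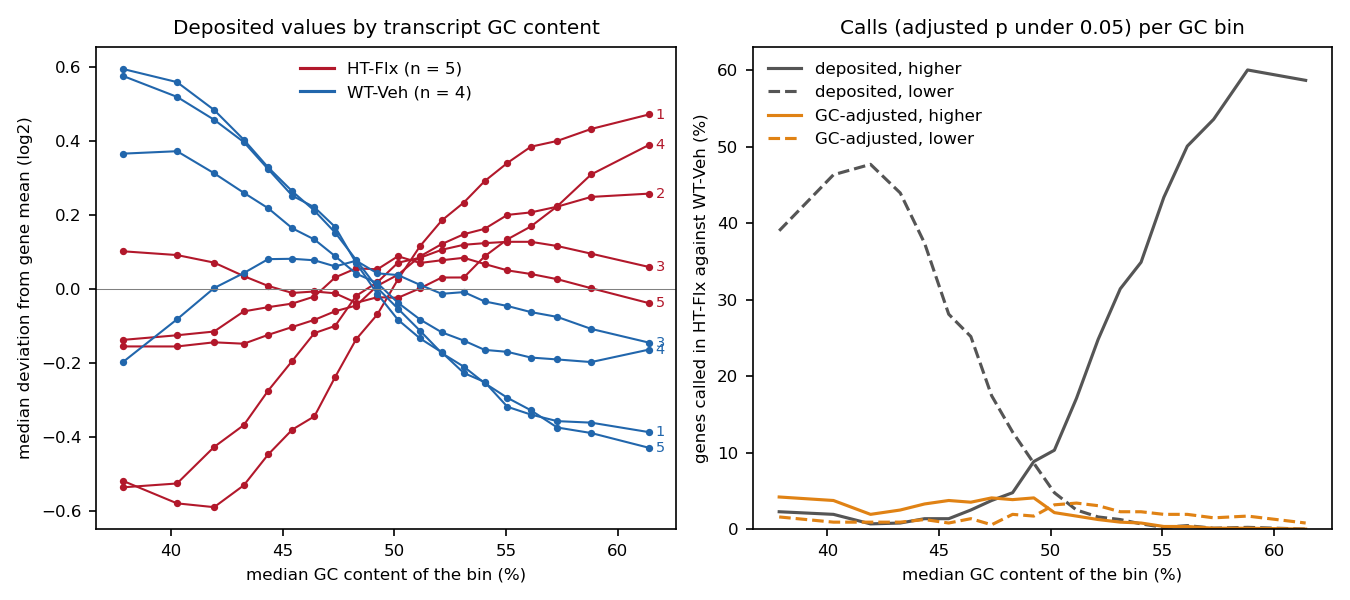
Left, the median deviation from the gene means (log2) in 20 bins of transcript GC content (%), with 1 line per library numbered by replicate, HT-Flx in red and WT-Veh in blue. Right, the percentage of genes per bin called higher (solid) or lower (dashed) in HT-Flx, on deposited (grey) and GC-adjusted (orange) values. Deposited calls ran from 39.0% lower in the lowest bin to 58.7% higher in the highest, and adjusted calls stayed at or below a few percent in the bins at both ends.

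Each library was therefore adjusted by subtracting, in each of the 20 bins, the median deviation of the genes of that bin. Of 17657 genes tested, 3641 were called higher in HT-Flx (20.6%) and 2808 lower (15.9%) on deposited values. On GC-adjusted values, 376 were called higher (2.13%) and 299 lower (1.69%). Of the 6449 genes called on deposited values, 440 (6.82%) were called in the same direction after adjustment, and they made up 65.19% of the 675 genes called then. None were called in opposite directions. At an unadjusted p under 0.05, 8755 genes passed on deposited values (49.6%) and 4519 on adjusted values (25.6%). The libraries of the groups did not overlap in 4190 genes (23.7%) on deposited values and in 1815 (10.3%) on adjusted values. The slope on GC content that remained differed by -0.04 between groups (exact permutation p = 0.0159), and that on length by -0.032 (p = 0.413, exact permutation).

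The calls on adjusted values lay close to the threshold and depended on single libraries. The smallest adjusted p was 0.000826 and the next 0.0329, so that all other called genes fell between 0.0329 and 0.05 in limma. Without HT-Flx 1, HT-Flx 2, HT-Flx 3, WT-Veh 1, WT-Veh 4 or WT-Veh 5, at most 2 genes were called in total, although 3051 to 4056 passed an unadjusted p under 0.05 in these fits. Without HT-Flx 4, HT-Flx 5 or WT-Veh 3, 867, 556 and 549 genes were called higher and 722, 367 and 458 lower. With WT-Veh 2 put back, 863 were called higher and 775 lower, and these included 97.5% of the 675. A fit without the intensity trend in the error model called 1 gene higher and 1 lower, and a fit over all P120 groups 56 and 73. The pathway counts below rest on these calls. The medians and the values per library are given beside them because they do not depend on the threshold.

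**Figure D2:**
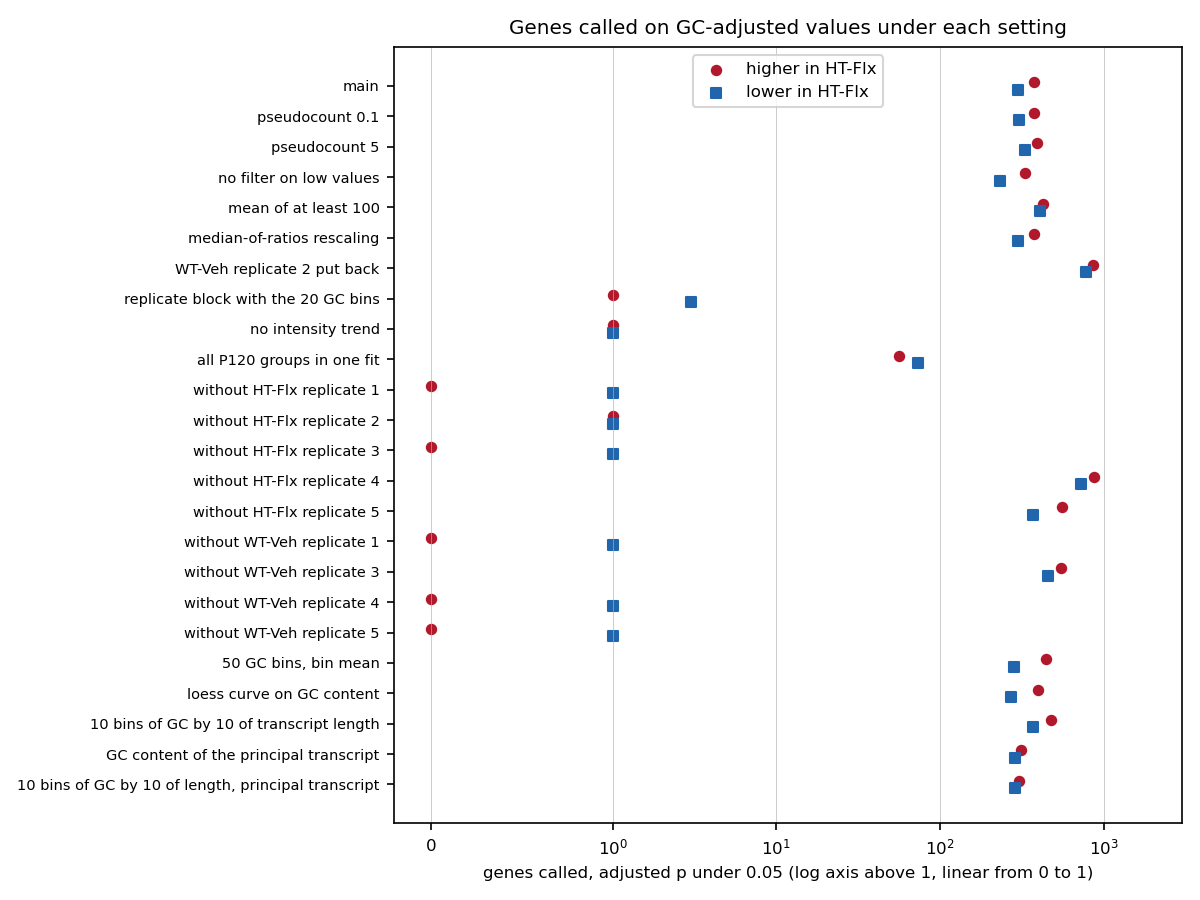
The number of genes called higher (red circles) or lower (blue squares) in HT-Flx on GC-adjusted values, in the fit described (main) and under each alternative, on an axis that is linear from 0 to 1 and logarithmic above. Leaving out any of 6 single libraries left at most 2 genes in total, and leaving out any of the other 3 left between 923 and 1589.

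GC content of the longest annotated transcript did not describe every gene equally well. Of 15913 protein-coding genes listed, 2849 had a longest transcript of another type, such as one with a retained intron, and GC content differed by over 5 percentage points from that of the principal coding transcript in 904 genes. Adjustment by the principal transcript was added after these values had been seen. It called 313 genes higher and 285 lower and included 68.3% of the 675. Bins of GC by length called 477 and 369 and included 88.1%. Of the 675, 346 (51.3%) were called under the principal transcript, under GC by length and under both together.

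Across 52 gene lists, adjustment changed the sign of the median log2 fold change in 16. Before it, the median of a list rose with the median GC content of its members (Pearson r = 0.5 across 52 lists, which share libraries and some genes), and after it r was -0.313. Lists whose per-library medians did not overlap between groups fell in number from 12 to 4. These 4 were the mitochondrially encoded mRNAs, which were higher in HT-Flx, and SR proteins and nuclear RNA-binding proteins, chromosome maintenance and centrosome, and ATP-dependent remodelers and DNA methylation, which were lower. Over all tested genes the median was 0.03 before and -0.005 after adjustment. Of these genes, 23.7% did not overlap between groups before adjustment and 10.3% after it. The shares called were 20.6% higher and 15.9% lower before, and 2.13% and 1.69% after. The lists were chosen with earlier results of these data known, so their counts and medians are given with no test of the list.

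**Figure D3:**
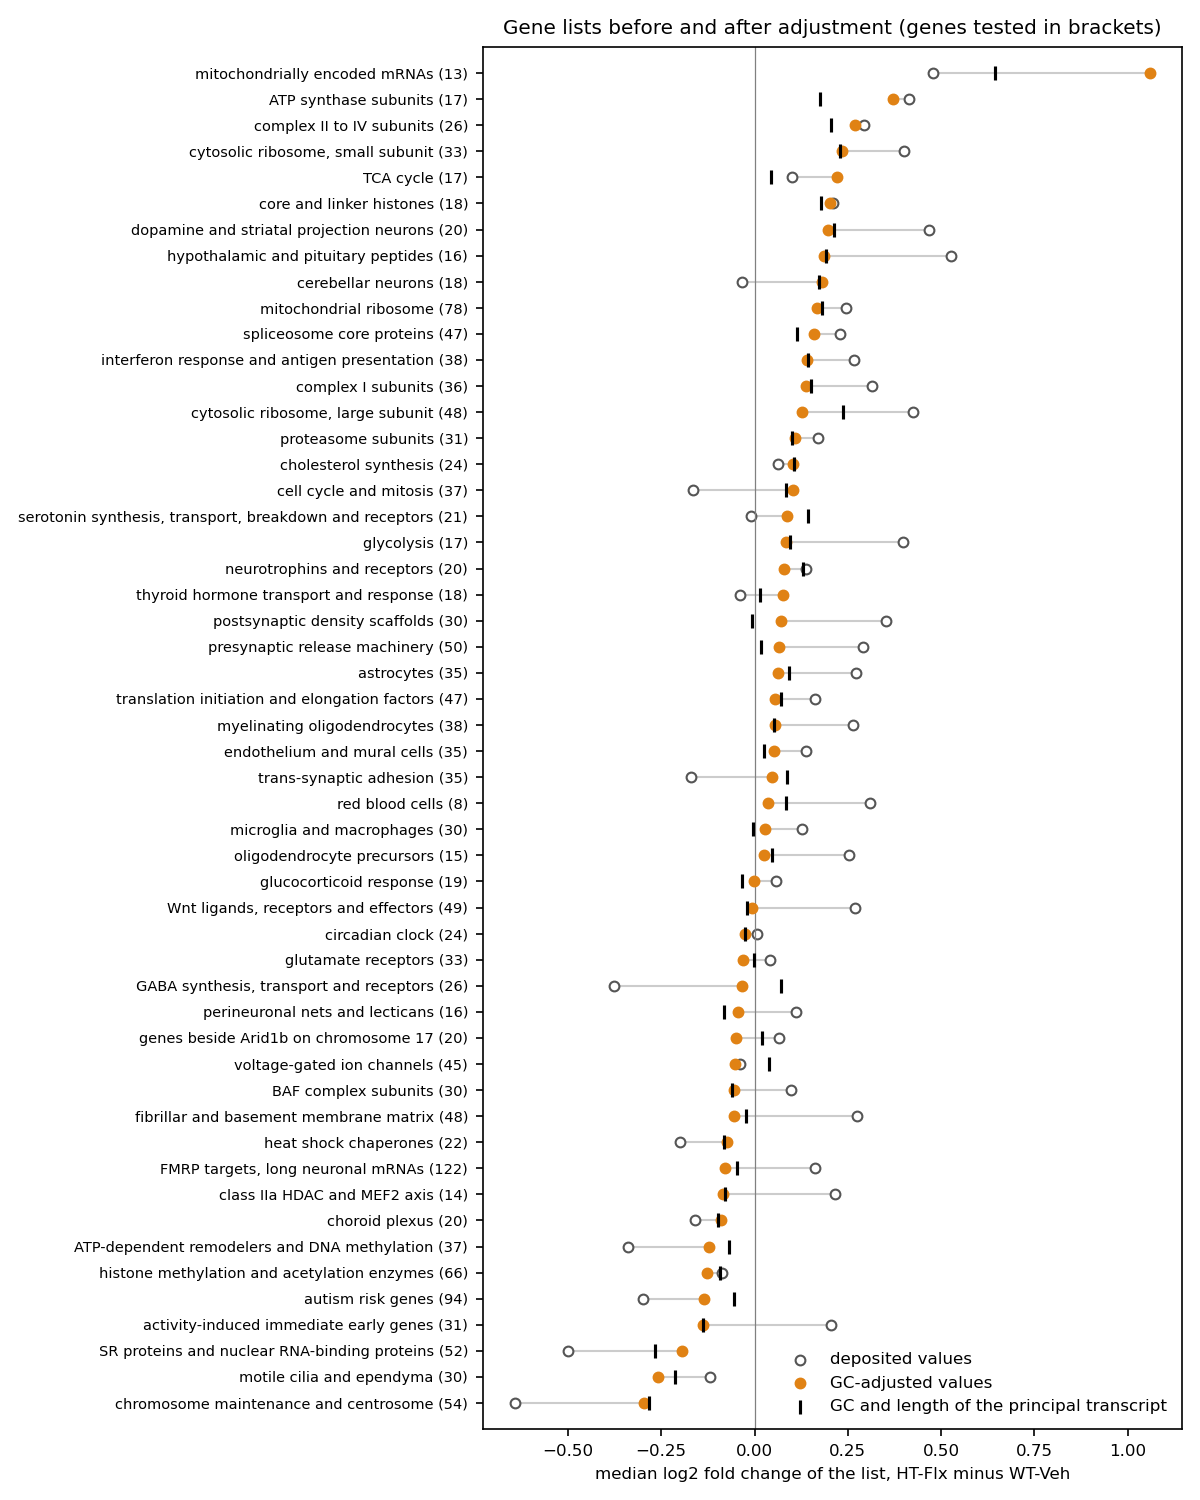
The median log2 fold change, HT-Flx minus WT-Veh, of each of 52 gene lists on deposited values (open circles), GC-adjusted values (orange) and values adjusted for GC content and length of the principal transcript (black ticks). The number of genes tested is in brackets, and lists run from -0.30 (chromosome maintenance and centrosome) to 1.06 (mitochondrially encoded mRNAs) on GC-adjusted values.

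Mitochondrial transcripts had the highest list median. Mitochondrial DNA encodes 13 proteins, all of them subunits of respiratory complexes I, III and IV or of ATP synthase, and all 13 mRNAs were tested. On adjusted values their median log2 fold change was 1.06, and 9 were called higher in HT-Flx, against 2.13% of all tested genes. On deposited values the median was 0.48, with 6 called higher and 1 lower. The per-library median deviation on adjusted values was 1.00, 0.12, 0.96, 0.20 and 0.17 in HT-Flx 1 to 5 and -0.79, -0.44, -0.41 and -0.76 in WT-Veh 1, 3, 4 and 5. On that scale HT-Flx 1 and 3 were far above the other 3 HT-Flx libraries, which in turn were above all WT-Veh libraries. On deposited values HT-Flx 1 to 5 stood at 0.46, -0.04, 0.41, 0.29 and 0.02. WT-Veh 1, 3, 4 and 5 stood at -0.23, -0.65, -0.06 and -0.17, so that HT-Flx 2 lay just above WT-Veh 4. The adjusted median log2 fold change stayed at 0.95 to 1.23 without each library in turn. It was 0.67, with 7 of 13 called, when GC was adjusted together with length, and 1.08 with the principal transcript.

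mt-Nd4l, whose sequence opens the set above, encodes a membrane subunit of complex I. Its deposited values were 5653, 4070, 7521, 5369 and 5539 in HT-Flx 1 to 5 against 3350, 1718, 3722 and 3074 in WT-Veh 1, 3, 4 and 5. The groups did not overlap, and the adjusted log2 fold change was 1.55 ± 0.23 (SE, limma adjusted p = 0.0329). mt-Atp6, a proton channel subunit of ATP synthase, was 100792, 76796, 90790, 89978 and 59079 in HT-Flx against 35398, 35917, 51871 and 55010 in WT-Veh. It rose by 1.495 ± 0.23 on the log2 scale (adjusted p = 0.0329, limma). mt-Co3, a core subunit of complex IV, was 133920, 86073, 122135, 107320 and 141555 against 70962, 62646, 76450 and 64472, again with no overlap, and rose by 1.35 ± 0.22 log2 (limma adjusted p = 0.0329).

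mt-Nd1, mt-Nd2, mt-Nd3, mt-Nd4 and mt-Nd5 of complex I rose by 0.86 to 1.27 log2, and mt-Cytb of complex III by 1.06. mt-Co2 at 1.06, mt-Nd6 at 0.70 and mt-Atp8 at 0.79 did not pass the test (limma adjusted p = 0.0539, 0.0535 and 0.0886). mt-Co1, the catalytic subunit of complex IV, differed from the rest. Its deposited values were 415508, 344616, 456826, 360983 and 492276 in HT-Flx against 555185, 531723, 698883 and 648064 in WT-Veh. All HT-Flx libraries were below all WT-Veh libraries, and its log2 fold change was -0.56 on deposited values (limma adjusted p = 0.0155), 0.04 on adjusted values (limma adjusted p = 0.917) and -0.43 when GC was adjusted with length (limma adjusted p = 0.105). The 13 mRNAs are cut from long shared precursors, the reading frames of mt-Atp8 and mt-Atp6 and of mt-Nd4l and mt-Nd4 overlap, and nuclear copies of mitochondrial DNA share sequence with them, so that single values are uncertain where reads are shared.

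**Figure D4:**
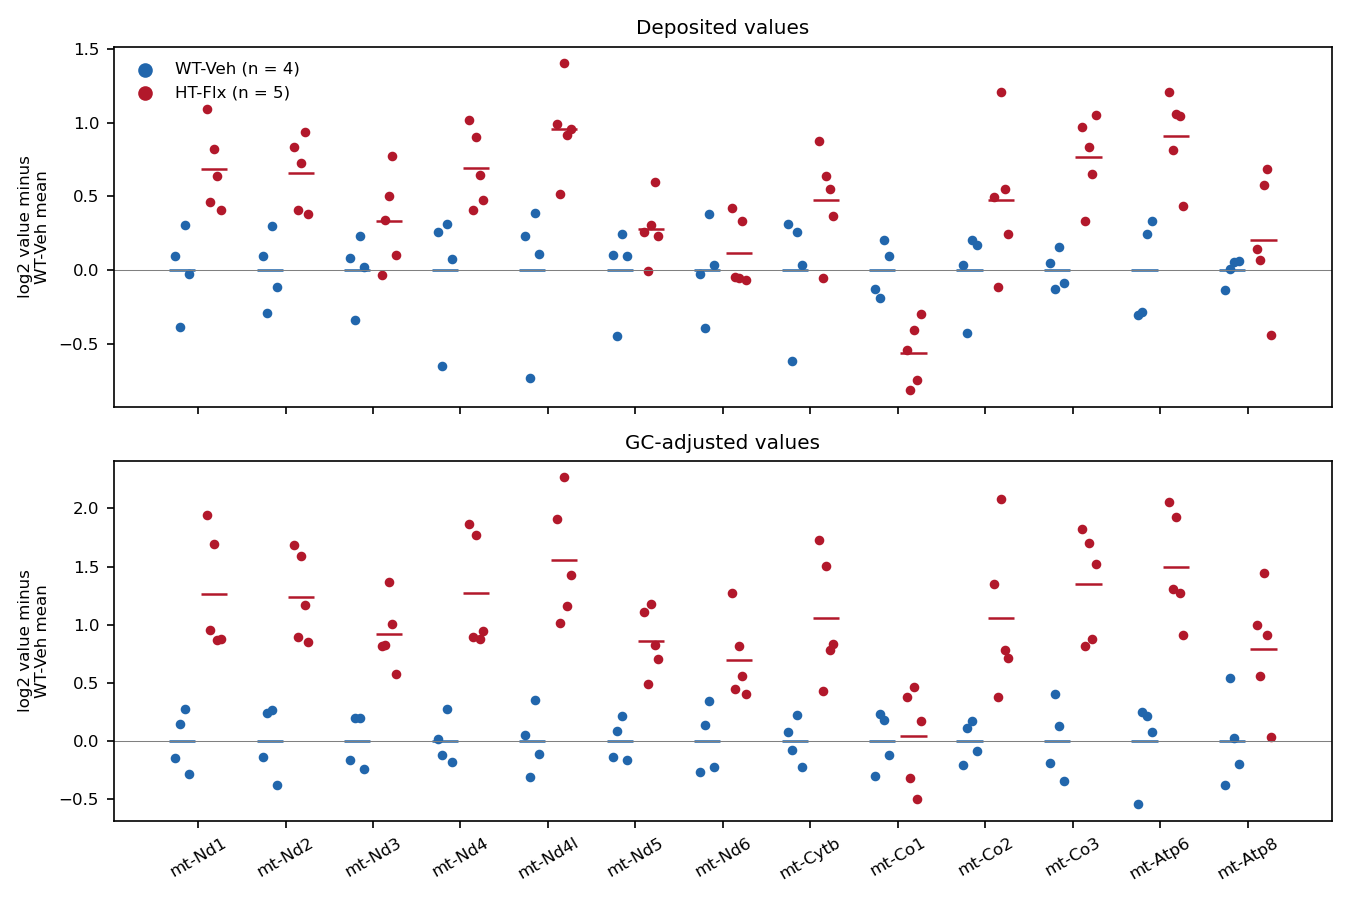
The log2 value of each mitochondrially encoded mRNA minus its WT-Veh mean, on deposited (top) and GC-adjusted (bottom) values, with 1 point per library and a line at the group mean, HT-Flx in red and WT-Veh in blue. mt-Co1 alone of the 13 lay lower in HT-Flx on deposited values, at a log2 fold change of -0.56, and reached 0.04 after adjustment.

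Nuclear-encoded mitochondrial genes moved in the same direction by less. Their calls stand beside 2.13% higher and 1.69% lower over all tested genes. ATP synthase subunits had a median adjusted log2 fold change of 0.37, with 3 of 17 called higher (Usmg5, Atp5g1 and Atp5e). Complex II to IV subunits had 0.27, with 5 of 26 called (Uqcrb, Cox7c, Cox5a, Sdhc and Uqcrc1). Complex I subunits had 0.14, with 4 of 36 (Ndufb2, Ndufc1, Ndufb8 and Ndufb6). The mitochondrial ribosome, which translates the 13 mRNAs inside the organelle, had 0.17 with 10 of 78, and TCA cycle enzymes 0.22 with 3 of 17. With the principal transcript, Atp5e, Cox5a, Uqcrc1 and Ndufb8 did not pass (limma adjusted p = 0.11, 0.0532, 0.0833 and 0.499). No member of these 5 lists was called lower, while 4, 3, 2 and 1 members of the mitochondrial ribosome, complex I, TCA cycle and complex II to IV lists were lower at an unadjusted p under 0.05 in limma. In all 5 lists the libraries of the groups overlapped. In ATP synthase, for example, HT-Flx ran from -0.11 in HT-Flx 4 to 0.47 in HT-Flx 1, and WT-Veh 3 and 4 stood at -0.02 and -0.01.

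Uqcrb, printed above, was 2604, 1842, 2299, 1975 and 1829 in HT-Flx against 1141, 1201, 1616 and 1356 in WT-Veh. The groups did not overlap, and it rose by 1.27 ± 0.23 log2 (limma adjusted p = 0.037). Cs, citrate synthase, the entry enzyme of the TCA cycle, was 11936, 12032, 12023, 10448 and 11574 against 8286, 10318, 9243 and 8698. It rose by 0.45 ± 0.09 (adjusted p = 0.0408, limma) on GC content of the longest transcript and by 0.28 (adjusted p = 0.0492) on that of the principal transcript. The TCA cycle median fell to 0.01 under the principal transcript, and the ATP synthase median to 0.19.

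Base composition divided these genes after adjustment, in the opposite order to that on deposited values. Of the 174 genes on the 5 nuclear-encoded mitochondrial lists, 89 had GC content below the median of all tested genes. These 89 held 22 of the 25 called genes and had a median adjusted log2 fold change of 0.44 (0.20 on deposited values). The other 85 held 3 called genes and had a median of 0.06 (0.37 on deposited values). The called genes had longest transcripts with a median of 2877 bases, against 1411 in those not called. With the principal transcript, 18 were called, and the medians below and above the GC median were 0.42 and 0.06. The direction of the 5 medians was the same under every adjustment tried, and the larger values were in the GC-poor members.

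Cytosolic ribosomal proteins showed the same division. The small subunit had a median adjusted log2 fold change of 0.24 with 4 of 33 called higher (Rps27l, Rps13, Rps3 and Rps23), against 0.40 and 14 called on deposited values. The large subunit had 0.13 with 1 of 48 (Rpl22l1), against 0.43 and 18. Over all tested genes 2.13% were called higher on adjusted values, a share that 1 of 48 does not exceed. Rps13 and Rps3 did not pass with the principal transcript (limma adjusted p = 0.111 and 0.0517). All 5 genes called with the longest transcript were among the 34 members below the GC median. The median of these 34 was 0.50, and the 47 members above it had 0.06. On deposited values the order was the opposite, at 0.30 and 0.46. Rpl22l1, a paralog of Rpl22, was 2106, 1760, 1398, 2086 and 1345 in HT-Flx against 951, 1030, 1460 and 1069 in WT-Veh, where WT-Veh 4 reached into the HT-Flx range. Its adjusted log2 fold change was 1.11 ± 0.21 (limma adjusted p = 0.0383). HT-Flx 1 stood at 0.52 in the median of the small subunit while HT-Flx 2 to 5 stood between -0.09 and 0.10. Ribosomal protein genes have many processed pseudogenes, which share reads with them and make single values uncertain.

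SR proteins and nuclear RNA-binding proteins, which select splice sites and package nascent RNA, were lower. Of 52 tested, 9 fell in HT-Flx on adjusted values and 0 rose, while 5 were higher at an unadjusted p under 0.05 in limma, and the median log2 fold change was -0.19. On deposited values 32 were called lower, 4 higher, and the median was -0.50. Over all tested genes 1.69% were called lower on adjusted values and 15.9% on deposited values. The per-library medians lay between -0.11 and -0.05 in all 5 HT-Flx libraries and between 0.04 and 0.17 in all 4 WT-Veh libraries. With the longest transcript, members below and above the GC median gave similar values, -0.193 for 40 genes and -0.196 for 12, unlike the ribosomal and mitochondrial lists. The same 2 parts stood at -0.667 and 0.072 on deposited values. With the principal transcript, members below and above its GC median differed more, at -0.224 and -0.34. The median was -0.15 with GC by length and -0.26 with the principal transcript, and -0.14 to -0.24 without each library in turn.

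Srrm2 and Son, large scaffold proteins of nuclear speckles, where splicing factors are stored, were both lower. Srrm2 was 19976, 20249, 18122, 21754 and 20359 in HT-Flx against 29724, 25939, 22582 and 26095 in WT-Veh. The highest HT-Flx library was below the lowest WT-Veh library, and the adjusted log2 fold change was -0.59 ± 0.10 (limma adjusted p = 0.0331). Son was 5565, 7865, 6266, 10063 and 8527 against 14908, 10875, 13665 and 16643. It fell by 0.79 ± 0.16 log2 (adjusted p = 0.0416, limma), although its groups overlapped after adjustment. Srsf2, an SR protein that binds exonic enhancers, was 3450, 3113, 3256, 3088 and 3370 against 4265, 3942, 3937 and 4203, and fell by 0.40 ± 0.07 (adjusted p = 0.0378, limma). The kinases Clk2 and Clk4, which phosphorylate SR proteins, fell by 0.47 and 0.64, Srsf11 by 0.47, the helicase Ddx5 by 0.33, Hnrnph1 by 0.36 and the paraspeckle RNA Neat1 by 0.52. Clk4 and Ddx5 did not pass with the principal transcript (limma adjusted p = 0.0638 and 0.141), nor Neat1 with GC by length (0.12).

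Core spliceosome proteins did not share this direction. Of 47 tested, 3 rose (Sf3b5 by 1.01, Lsm2 by 0.77 and Sf3a1 by 0.36 log2), 2 fell (Sf3b1 by 0.64 and Ddx46 by 0.44), and the median was 0.16. Over all tested genes 2.13% were called higher and 1.69% lower. At an unadjusted p under 0.05 in limma, 19 of the 47 were higher and 7 lower. Members below and above the GC median stood at 0.41 and 0.07, against 0.11 and 0.36 on deposited values. With the principal transcript Lsm2 rose by 0.29 and did not pass (limma adjusted p = 0.183). Sf3b5 and Sf3b1 are subunits of the same U2 particle. Sf3b5 was 2774, 2046, 1877, 2267 and 1541 in HT-Flx against 1187, 1571, 1276 and 1150 in WT-Veh. Sf3b1 was 2303, 3861, 2442, 5010 and 3642 against 10254, 5230, 6669 and 9182, with every HT-Flx library below every WT-Veh library.

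**Figure D5:**
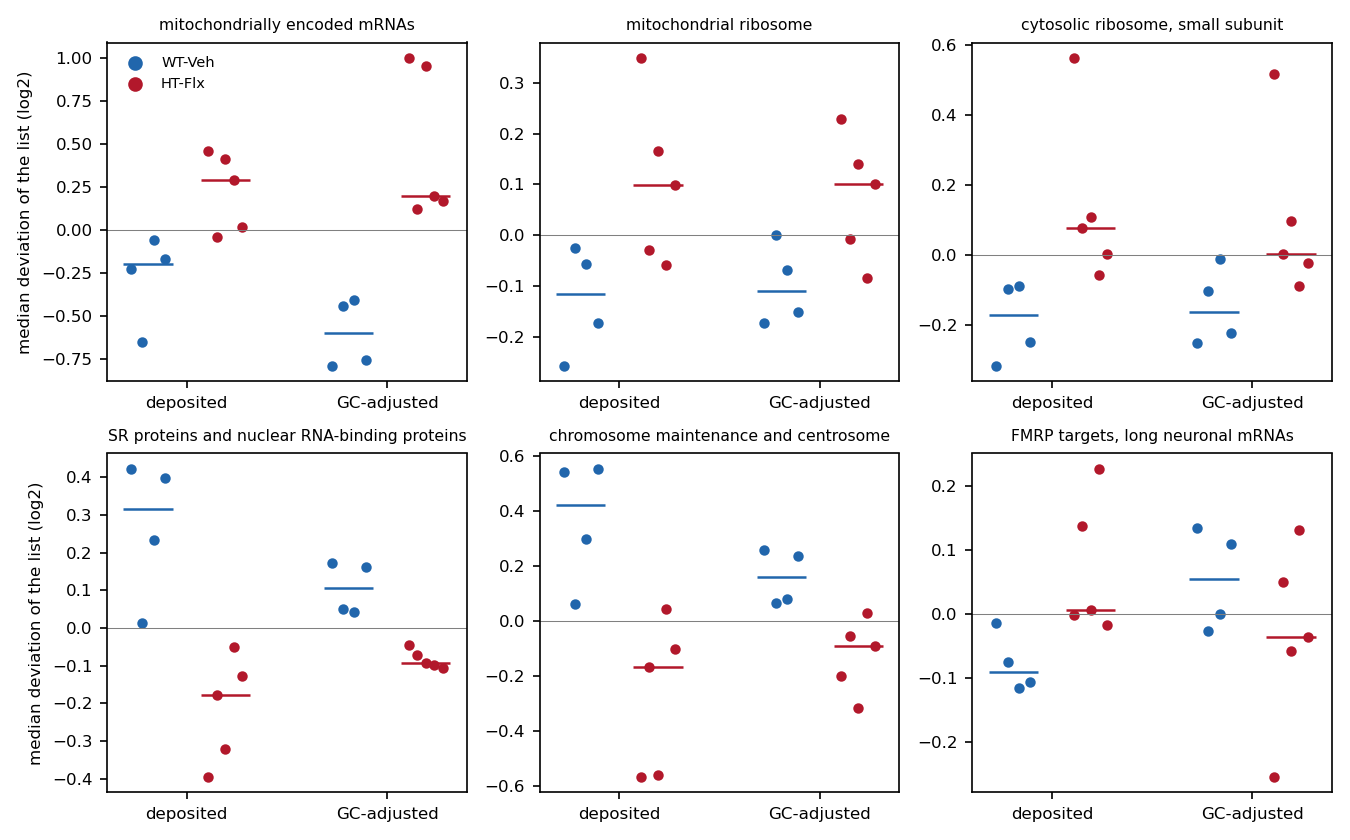
The median deviation of 6 gene lists from the gene means (log2) in each library, on deposited and GC-adjusted values, with WT-Veh in blue (n = 4), HT-Flx in red (n = 5) and a line at the group median. After adjustment the groups did not overlap in the mitochondrially encoded mRNAs, the SR and nuclear RNA-binding proteins and the chromosome maintenance list, and overlapped in the other 3.

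Genes of chromosome maintenance and the centrosome were lower as well. Of 54 tested, 4 fell on adjusted values and 0 rose, with 2 higher at an unadjusted p under 0.05 in limma, and the median log2 fold change was -0.30. On deposited values 28 were called lower, 0 higher, and the median was -0.64. The shares of all tested genes called lower were 1.69% on adjusted values and 15.9% on deposited values. Per-library medians were -0.20, -0.05, -0.32, 0.03 and -0.09 in HT-Flx against 0.26, 0.07, 0.08 and 0.23 in WT-Veh. The groups did not overlap, but HT-Flx 4 and WT-Veh 3 differed by little. Cep152, which starts centriole duplication, was 68.95, 94.93, 102.7, 125.7 and 144.0 in HT-Flx against 202.3, 182.0, 175.7 and 204.6 in WT-Veh, and fell by 0.94 ± 0.20 (limma adjusted p = 0.0416). Cntrl, centriolin, a scaffold of the mother centriole, was 239.4, 267.1, 200.4, 300.3 and 284.1 against 764.0, 375.3, 420.7 and 618.9. It fell by 0.93 ± 0.20 (adjusted p = 0.0416, limma). Cep135 fell by 0.74 and the mismatch repair gene Msh6 by 0.54, and neither passed with the principal transcript (limma adjusted p = 0.0556 and 0.0557). Cell cycle genes had a median of 0.10 and no call in 37, with 5 higher and 2 lower at an unadjusted p under 0.05 in limma.

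Chromatin regulators held calls in both directions, set beside the 2.13% higher and 1.69% lower over all genes. The BAF complex has 30 members tested, among them Arid1b, which chose the libraries and is left out of the calls here, and the median was -0.06. Smarca2, an ATPase of the complex, fell by 0.61 and Ss18 by 0.53. Smarca2 did not pass with the principal transcript (limma adjusted p = 0.058). Smarcb1 rose by 0.58 and Bcl11a by 0.64. At an unadjusted p under 0.05 in limma, 4 members were higher and 5 lower, Arid1b included. Of 66 enzymes of histone methylation and acetylation, 2 rose, Kdm5b and Sirt3, and 3 fell, Kdm1a, Kdm1b and Kat8. Among the 66, 6 were higher and 14 lower at an unadjusted p under 0.05 in limma. Sirt3 is a deacetylase of mitochondria, and it did not pass with the principal transcript (limma adjusted p = 0.0989). In the list of ATP-dependent remodelers and DNA methylation, 1 of 37 fell, Mbd2 by 0.86, which binds methylated DNA, and the median was -0.12. Libraries of that list ran from -0.21 to -0.003 in HT-Flx and from 0.03 to 0.14 in WT-Veh, with HT-Flx 1 far below the other 4. Of its 37 members, 2 were higher and 13 lower at an unadjusted p under 0.05 in limma. Over all 17657 genes these counts were 2271 and 2248. In the list of 20 genes at the Arid1b locus and beside it, 2 rose and none but Arid1b, which is left out of the calls here, was called lower. The 2 were Tmem181a and Tmem181b-ps, near copies of each other, and with WT-Veh 2 put back Tmem181b-ps did not pass (limma adjusted p = 0.177).

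Synaptic lists differed in direction on deposited values, and their medians lay between -0.03 and 0.07 after adjustment. Over all tested genes 20.6% were called higher and 15.9% lower on deposited values, and 2.13% and 1.69% after adjustment. Postsynaptic density scaffolds went from a median of 0.35, with 14 of 30 called higher, to 0.07 with 1. Presynaptic release machinery went from 0.29, with 23 of 50 called higher, to 0.07 with 1. After adjustment, 6 scaffolds were higher and 2 lower at an unadjusted p under 0.05 in limma. Of the release genes, 13 were higher and 5 lower at that level. Glycolysis went from 0.40, with 11 of 17 called higher, to 0.08 with 0 called in limma, where 3 were higher and 3 lower at an unadjusted p under 0.05. GABA genes, which are GC-poor at a median of 44.2%, went from -0.38, with 7 of 26 called higher and 4 lower, to -0.03 with 0 called. After adjustment, 4 of them were higher and 5 lower at an unadjusted p under 0.05 in limma. Trans-synaptic adhesion genes went from -0.17, with 12 of 35 called higher and 2 lower, to 0.05 with 2 higher. At an unadjusted p under 0.05 in limma, 5 of these were then higher and 1 lower. Glutamate receptors went from 0.04, with 10 of 33 called higher and 5 lower, to -0.03 with 0 called in limma, where 2 were higher and 2 lower at an unadjusted p under 0.05.

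The members called after adjustment in the scaffold and release lists were Dlg4, which encodes the main scaffold of excitatory synapses, PSD-95, and Syp, which encodes the vesicle protein synaptophysin. Dlg4 was 53106, 44137, 37710, 52346 and 31508 in HT-Flx against 26507, 28201, 26550 and 24029 in WT-Veh, with no overlap. Its adjusted log2 fold change was 0.98 ± 0.18 (limma adjusted p = 0.0359) with the GC content of its longest transcript, 46.8%. It was 0.26 (limma adjusted p = 0.141) with that of its principal transcript, 57.9%. Syp was 76657, 66571, 60593, 67279 and 55199 against 36339, 44832, 43063 and 36779. It rose by 1.03 ± 0.15 (adjusted p = 0.0329, limma) at 45.4% GC and by 0.28 (adjusted p = 0.0465) at the 56.6% of its principal transcript. Both genes were higher in every HT-Flx library, and the size of the difference after adjustment depended on which transcript set the GC content.

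FMRP targets are long neuronal mRNAs bound by the protein that is lost in fragile X syndrome. Of 122 tested, 48 were called higher and 20 lower on deposited values, with a median of 0.16. After adjustment 2 were called higher (Dlg4 and Nlgn3), 2 lower (Birc6 and Macf1), and the median was -0.08, while 5 were higher and 27 lower at an unadjusted p under 0.05 in limma. Their median GC content was 52.7%. Over all tested genes 20.6% were called higher and 15.9% lower before adjustment, and 2.13% and 1.69% after it. Autism risk genes had a median of -0.30 with 16 called higher and 30 lower of 94 before adjustment. They had -0.14 after it, with 3 called higher (Bcl11a, Kdm5b and Nlgn3) and, leaving out Arid1b, 1 lower (Ankrd11). Ankrd11 did not pass with the principal transcript (limma adjusted p = 0.0573). At an unadjusted p under 0.05 in limma 8 were higher and 22 lower, Arid1b included. The study drew on gene sets of these kinds for this experiment, so their direction is not independent evidence. Macf1, a giant linker of microtubules and actin, was 6606, 10098, 7830, 11727 and 11747 in HT-Flx against 16000, 14372, 15735 and 17833 in WT-Veh. It fell by 0.49 ± 0.12 (limma adjusted p = 0.045).

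Of the genes that the study names for this experiment, Hdac4 and Mef2a were called on deposited values and not after adjustment, and Arc on neither. Hdac4, a class IIa histone deacetylase that moves into the nucleus and represses MEF2, was 3524, 4121, 3536, 3321 and 3694 in HT-Flx against 2234, 2810, 2921 and 2883 in WT-Veh. All HT-Flx libraries were above all WT-Veh libraries, with a log2 fold change of 0.43 (limma adjusted p = 0.0166) on deposited and 0.21 (0.195) on adjusted values. Mef2a, a MEF2 transcription factor, was 1709, 2770, 1827, 3286 and 2839 against 4803, 2830, 3853 and 4360, at -0.69 (limma adjusted p = 0.0267) before and -0.14 (0.398) after adjustment. Arc, an activity-induced synaptic gene, was at 0.14 before and -0.34 after and did not pass in either (limma adjusted p = 0.651 and 0.286). Hdac4, Mef2a and Arc were not called under any of the adjusted alternatives.

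Outside these lists, the named-gene rule picked the genes with the most extreme adjusted fold changes among those with a mean of at least 50 and groups that did not overlap. Espl1, which encodes separase, the protease that cleaves cohesin at anaphase, was 166, 101, 97.1, 192 and 129 in HT-Flx against 23.5, 55.1, 23.7 and 40.8 in WT-Veh. It rose by 1.53 ± 0.28 (limma adjusted p = 0.0359), at a GC content of 56.1% against a median of 46.4% among the genes called higher. Ndn, the imprinted gene necdin of postmitotic neurons, was 18956, 16748, 14221, 19893 and 14805 against 5640, 11557, 8398 and 10241. It rose by 1.37 ± 0.22 (adjusted p = 0.0329, limma). Ogn, a small proteoglycan of the meninges and matrix, rose by 1.39, and Bc1, a short neuronal RNA of dendrites, by 1.31. The others that rose were the unnamed loci 4930522L14Rik and Gm14419 and the zinc finger gene Zfp960, by 1.29 to 1.45, besides 3 mitochondrial mRNAs.

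Hspa1b, printed above, was 1422, 1846, 1158, 1918 and 1513 in HT-Flx against 1761, 2583, 2610 and 2978 in WT-Veh. The highest HT-Flx libraries reached above WT-Veh 1 on this scale, and after adjustment the groups did not overlap, with a fall of 1.14 ± 0.17 log2 (limma adjusted p = 0.0329). Its near-identical paralog Hspa1a, from which reads cannot be fully told apart, fell by 0.64. These 2 and no others of 22 heat shock chaperones were called, where 1.69% of all tested genes were called lower. The list median was -0.07, and 2 members were higher and 6 lower at an unadjusted p under 0.05 in limma. Lonrf3, a putative ubiquitin ligase, was 87.9, 177, 96.2, 198 and 206 against 323, 279, 284 and 422 and fell by 1.31 ± 0.28 (limma adjusted p = 0.0416). Golga4, a Golgi tether, was 1434, 2215, 1606, 2996 and 2319 against 4404, 3156, 3667 and 4457 and fell by 1.00. The actin-binding gene Coro6 fell by 1.04 and Cfp, which encodes the complement activator properdin, by 0.98. The others that fell were Gm43980, Mirt1, A730035I17Rik, 8430422M14Rik and E130102H24Rik, by 0.99 to 1.14. All 20 genes that the rule picked stayed called with the principal transcript.

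Lists of other cell types and regions held few calls after adjustment, where 2.13% of all tested genes were called higher and 1.69% lower. Astrocytes had 2 of 35 called higher, the membrane protein gene Mlc1 by 0.41 and the glutamine synthetase gene Glul by 0.28 log2, and oligodendrocyte precursors had Neu4 by 0.54. Myelinating oligodendrocytes, microglia and macrophages, endothelium and mural cells, choroid plexus, cerebellar neurons and red blood cells had no call in limma, with 6, 3, 5, 1, 0 and 0 members higher and 4, 3, 7, 3, 0 and 0 lower at an unadjusted p under 0.05. Their medians lay between -0.09 and 0.18, and that of cerebellar neurons was -0.23 without WT-Veh 1. Motile cilia and ependyma had the lowest median of these lists, -0.26, with overlapping libraries and no call in 30 (2 higher and 2 lower at an unadjusted p under 0.05 in limma). Of the activity-induced immediate early genes, none of 31 was called and 5 were lower and 0 higher at an unadjusted p under 0.05 in limma, with a median of 0.21 before and -0.14 after adjustment.

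Single members were called in further lists. Col5a1, a fibrillar collagen chain, fell by 0.64, and the clock gene Per2 by 0.43. Slitrk1 and Nlgn3, adhesion proteins of the synapse, rose by 0.39 and 0.37, Gch1, which makes the cofactor of serotonin synthesis, by 0.79, Fdps of cholesterol synthesis by 0.51, and Pabpc1, which binds poly(A) tails, by 0.49. Gch1, Fdps and Pabpc1 did not pass with the principal transcript. Ntrk3, the receptor of neurotrophin-3, rose by 0.41 (limma adjusted p = 0.0416), although its deposited values, 5237, 5866, 5728, 5857 and 6099 in HT-Flx against 6104, 5527, 5942 and 6721 in WT-Veh, gave -0.07 (0.543). Wnt genes had a median of -0.01 with no call in 49, against 14 called higher before adjustment, and 1 was higher and 6 lower at an unadjusted p under 0.05 in limma. Before adjustment 20.6% of all tested genes were called higher.

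The remaining P120 groups were set beside this comparison on 1 GC adjustment of all P120 libraries without WT-Veh 2 and HT-Veh 2. They share the WT-Veh libraries, so the values are given side by side only. For the mitochondrially encoded mRNAs, the median difference from WT-Veh was 1.07 in HT-Flx, 0.44 in HT-Veh and -0.24 in WT-Flx. For SR proteins and nuclear RNA-binding proteins it was -0.19, -0.07 and 0.06, and for chromosome maintenance and centrosome -0.29, -0.06 and 0.12. The mitochondrial ribosome stood at 0.16, 0.12 and -0.04. For the small subunit of the cytosolic ribosome the differences were 0.22, 0.21 and -0.07.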

How the data were processed

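Whole-brain total RNA had been prepared with a TruSeq kit. Per the submitters' processing notes, the authors quantified reads with Salmon 1.1.0 on GRCm38, with its GC bias correction on as the study's methods state, and normalised with DESeq2 1.30.1 in R 4.1.1, and the deposited table holds this signal: normalised, non-whole values per gene, with no counts or depth, so that no counting intervals are given. All columns were mapped to samples by their labels (0 were mapped to no sample). Genes with a mean of at least 10 over the 9 libraries were tested on log2(value + 1), so fold changes of low genes are understated. The test was limma 3.58.1 (R 4.3.3) with an intensity trend, Benjamini-Hochberg adjusted over all genes, at a threshold of 0.05. GC content and length came from the longest transcript in GENCODE M21 (99.92% of 19737 listed genes matched), and the adjustment subtracted, per library, the median deviation of each of 20 GC bins. Deviations are from the gene mean over the 9 libraries. Slopes were compared by a two-sided exact permutation test. The labels name separate animals only by number, and p-values measure the spread between these samples.

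The comparison, its members and the gene lists were chosen with earlier results of these data known. Genes were named by rule: Arid1b, Hdac4, Mef2a, Arc and 1 further gene that is not reported here, the 10 highest and 10 lowest adjusted fold changes among called genes with a mean of at least 50 and no overlap, and up to 3 called members per list or else the member with the smallest p. All 13 mitochondrial mRNAs and the further called members of the lists described were added after their values were seen, as were members named with a value only. Alternatives were the pseudocount (0.1 or 5), no filter or a mean of at least 100, median-of-ratios rescaling, WT-Veh 2 put back, each library left out, a replicate block, no trend, all P120 groups in 1 fit, 50 bins, a loess curve, and 10 bins of GC by 10 of length. The principal transcript was added after the data were seen. Simulated data for HT-Flx against WT-Veh (17657 genes, 200 of them changed) kept the observed GC tilt. On them the GC-adjusted fit recovered 74% of changes of 1 log2 and 19.5% of changes of 0.5, calling 5 and 1 unchanged genes. The fit without adjustment called 4543 and 4688 unchanged genes. The simulated tilt was set in the same 20 bins that the adjustment subtracts, so its removal was built in. Noise was independent between genes and carried no length trend, so false calls from such departures were not tested.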

Additional observations from a re-analysis of the deposited data

Results flagged for a closer look

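In 10 of 362 values tested, on GC-adjusted values, the highest or lowest library of a group stood apart from the others of its group. Chance alone gives about 1 in 20. HT-Flx 1 held 4 of them. Its median deviation for ATP-dependent remodelers and DNA methylation was -0.212, against -0.061 to -0.003 in the other HT-Flx libraries. Atp5e was at 11.75 log2 (11.11 to 11.29 in the others), Ndufb6 at 11.02 (10.56 to 10.69) and Tfrc, the transferrin receptor, at 10.75 (10.53 to 10.58). HT-Flx 5 held 3: dopamine and striatal projection neurons at -0.527 (0.148 to 0.32), its opioid peptide gene Penk at 12.38 (13.07 to 13.3) and astrocytes at 0.106 (-0.033 to 0.003). In HT-Flx 4, Pdk4, which blocks pyruvate dehydrogenase, was at 8.76 (9.09 to 9.18). In WT-Veh 1, cerebellar neurons were at -1.288 (0.161 to 0.423 in the other WT-Veh libraries). In WT-Veh 3, Vcan, a matrix proteoglycan, was at 9.9 (9.09 to 9.16).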

How the results depend on the processing

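The difference in GC slope kept its direction and its side of the threshold under all 15 alternatives. Of the counts on GC-adjusted values, those under other pseudocounts, filters, rescaling, 50 bins, loess and the 3 adjustments with length or the principal transcript stayed within 1.5 times of 376 higher and 299 lower. They moved to 3641 and 2808 with no GC adjustment, 863 and 775 with WT-Veh 2 put back, 56 and 73 with all P120 groups in 1 fit, and 1 and 1 without the trend (4256 at an unadjusted p under 0.05). With single libraries left out they ranged from 0 to 867 higher and from 1 to 722 lower, where the 0 came with 3051 to 4004 genes at an unadjusted p under 0.05 in limma. Deposited counts were 4138 and 3514 with WT-Veh 2 put back, and with single libraries left out they ranged from 0 to 4018 higher and from 1 to 3464 lower, the 0 and 1 without WT-Veh 5 (6698 unadjusted). Rescaling gave 3163 higher and 3347 lower on deposited values, 48.6% higher against 56.5%.

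Replicate numbers were shared between the groups, and the labels do not say what the numbers mark. For replicates 1, 3, 4 and 5, deviations of same-numbered libraries correlated at 0.049, 0.127, -0.0789 and 0.107 on GC-adjusted values. On deposited values they correlated at -0.0567, 0.207, -0.0697 and 0.182. Not every library correlated best with its own number, and whether the numbers mark a pairing is unknown. With the replicate block, 1 gene was called higher and 3 lower on GC-adjusted values (4303 unadjusted), and 2577 and 2679 on deposited values.

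The median of mitochondrially encoded mRNAs was 0.673 with GC by length, 0.643 with both from the principal transcript and 0.478 unadjusted. That of SR proteins and nuclear RNA-binding proteins was -0.263 with the principal transcript, -0.267 with its length added, -0.501 unadjusted and -0.240 to -0.140 with 1 library left out, -0.140 being without WT-Veh 5. Chromosome maintenance and centrosome stood at -0.643 unadjusted. Over the named genes and all their alternatives, 2009 values kept their direction and side of the threshold, 994 no longer passed, 68 newly passed, 1 called value reversed (Ntrk3, at -0.075 unadjusted), and 15 values of genes that were not called changed sign, 7 of them of mt-Co1. Depth is unknown, which leaves the counting error of low genes unknown too.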
